A study of Drosophila melanogaster with 16 samples.

Results

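Gene expression in motor neurons (MNs) of 7-day-old flies was compared with that of 45-day-old flies, using 11 of the 16 arrays of the series, 5 hybridized with 7-day pools and 6 with 45-day pools. Every pool came from female flies in which the D42-Gal4 driver expressed GFP; GFP-positive cells were dissociated from the thoracic ganglion, isolated by fluorescence-activated cell sorting (FACS), and their doubly amplified RNA was hybridized to a custom Agilent array enriched for membrane channel and calcium-binding genes. Flies of both ages carried the same driver and reporter and aged under the same conditions, so age was the only labeled difference. The cells are defined by the activity of the driver, each array is a pool of age-matched flies, and the pools of an age were separate by the study's methods. The level of a gene is given throughout as the log2 signal minus the 75th percentile of its array, so that 0 is the 75th percentile and 1 unit is a 2-fold difference. Of 12975 genes on the array, 7985 had at least 1 feature well above background on all arrays of at least 1 of the 2 ages and were tested.

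Motor neurons of the thoracic ganglion drive the legs and wings, and their long axons and constantly active synapses depend on mitochondrial ATP, ion pumps and calcium buffering. In aging fly tissue, mitochondrial, stress, immune and proteolytic genes are the groups most often followed. The comparison asks which of these, and which other genes, differ between young and old MNs beyond the matrix metalloproteinase gene Mmp1 and the extracellular matrix gene dumpy (dpy).

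The 75th percentile of the intensity ran from 7099 to 15038 on the 7-day arrays and from 8377 to 13990 on the 45-day arrays, and was set equal by the scaling. The share of spots well above background was 62.5% to 67.1% at 7 days and 56.7% to 64.6% at 45 days, the lowest being 45-day pool 4, and 0 spots were saturated. All 5 of the 7-day arrays lay in the second row of their slide, whereas 3 of the 45-day arrays lay there and 3 in the first row. The filter was uneven between ages: 744 genes passed through 7 days only and 191 through 45 days only, and such a gene had to differ to some degree. Over all 7985 genes the median change from 7 to 45 days was -0.12, and over the 6239 genes measured at both ages it was -0.06. Scaling the arrays by their median instead of their 75th percentile moved the median change of all genes to 0.24, and changes of gene groups are therefore given relative to the median of all genes.

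The sorted cells carried neuronal markers at both ages. All 7 neuron markers on the array were tested, 0 of them had an unadjusted limma p under 0.05, and the sum of their linear signals was 25.9 to 33.6 times the 75th percentile at 7 days and 25.2 to 30.2 times at 45 days. The pan-neuronal RNA-binding protein gene elav was at 1.87 ± 0.19 (SD, n = 5) and 1.96 ± 0.16 (SD, n = 6). Of 9 motor neuron and glutamatergic markers on the array, 8 were tested. The gene of the vesicular glutamate transporter was not matched to a feature here. Mean levels of the 8 ran from -3.23 for ey to 3.55 for twit at 7 days, and from -3.67 to 3.27 at 45 days. Among them, exex was at -2.18 ± 0.65 and -0.69 ± 1.05, and the BMP receptor gene wit at 1.58 ± 0.49 and 1.71 ± 0.49. Markers of other cells were measured too. The median summed signal at 7 and 45 days was 22.8 and 20.6 for the motor neuron list. It was 31.4 and 25.7 for 2 GABAergic markers, and 31.2 and 20.5 for 8 glial markers. Cholinergic, aminergic, muscle, fat body, hemocyte and tracheal lists had lower medians, the highest being 12.2 and 19.5 for fat body. Lists differ in genes and features, so the sums do not give the share of each cell type, which was not tested. The GABA synthesis gene Gad1 was at 4.90 ± 0.21 at 7 days and 4.67 ± 0.23 at 45 days, and the astrocyte gene alrm was at 4.21 ± 0.26 and 3.49 ± 0.43.

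Few genes differed between the ages after correction. In all, 20 of the 7985 genes (0.25%) passed the threshold, which was an adjusted p under 0.05 by limma with Benjamini-Hochberg adjustment and a change of more than 2-fold. Of these, 15 were higher at 45 days (0.188% of the genes tested) and 5 were lower (0.0626%). Mmp1 rose by 2.73 (SE 0.34) and dpy by 2.84 (SE 0.47). In each of the other 18 genes, 13 higher and 5 lower, the 5 values at 7 days and the 6 values at 45 days did not overlap, and the two-sided exact permutation p was 0.0043, the smallest that 5 against 6 arrays can give. The genes were selected by their p on these arrays, so both values describe the selection; 2.17% of all genes tested did not overlap. Of the 18, 7 were measured at both ages by every feature used, whereas 5 passed the filter through 45 days only and 4 through 7 days only. Leaving out 7-day pool 1, 2 or 4 reduced the count from 20 to 7 each time, and 4 genes, CG31601, Ipk1, dgt2 and Mmp1, stayed past the threshold whichever array was left out.

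**Figure D1:**
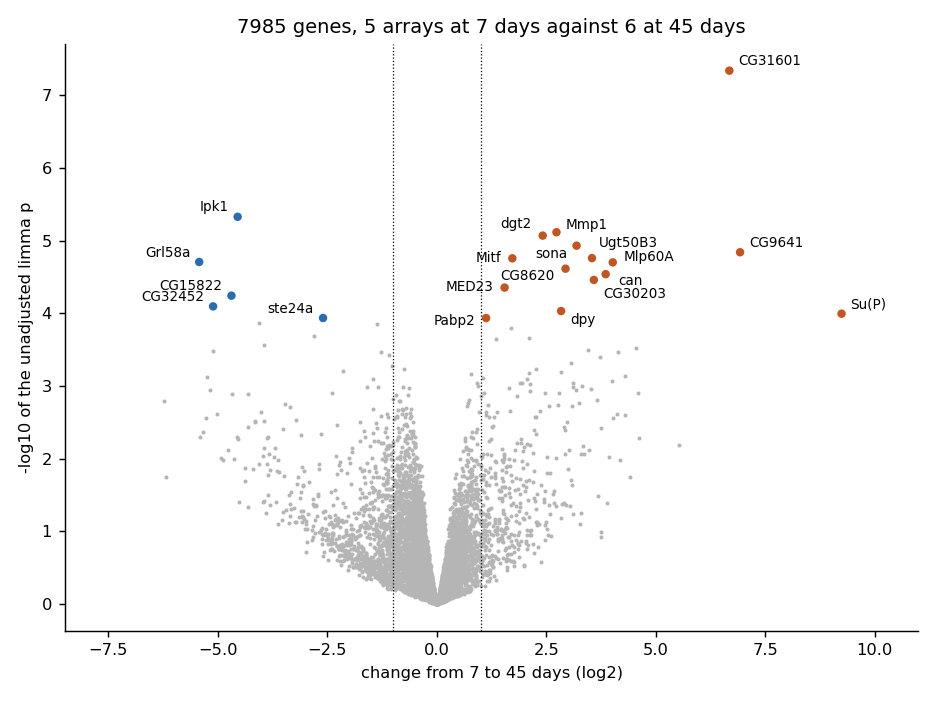
Change from 7 to 45 days (x axis, log2) against -log10 of the unadjusted limma p (y axis) for the 7985 genes tested, with the 20 genes past the threshold named in color (15 higher at 45 days, 5 lower) and dotted lines at a 2-fold change. Most genes lie near the middle, and the named genes higher at 45 days span changes from 1.13 for Pabp2 to 9.24 for Su(P).

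Among the genes that rose were a secreted protease, a lysosomal transcription factor, a microtubule factor, a muscle gene and 2 genes of RNA synthesis and processing. The secreted metalloprotease gene sona, whose product carries an ADAMTS-type protease domain, had levels of -4.41, -4.70, -2.25, -3.40 and -4.20 in 7-day pools 1 to 5. At 45 days its lowest, median and highest levels were -1.07, -0.58 and 0.05, all above the 7-day pools, and the rise was 3.19 (SE 0.42, limma adjusted p = 0.0159). Of 4 sona features on the array, 1 was bright enough to be used, and with all 4 the change was 1.39, not past the threshold.

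Mitf encodes the transcription factor that, with its mammalian relatives, drives genes of lysosomes, autophagy and the vacuolar proton pump. Its 7-day levels were -2.47, -2.73, -2.39, -2.42 and -2.47, and its 45-day levels had a lowest of -1.65, a median of -0.57 and a highest of -0.36. The 7-day pools were tightly grouped and every 45-day pool lay above them, a rise of 1.72 (SE 0.24, adjusted p = 0.0159). Both features used were higher at 45 days, by 1.98 and 1.47; with the brighter one alone Mitf did not pass the threshold, and with its dim feature included the change was 1.01. Of 33 ubiquitin and autophagy genes tested, Mitf included, 1 passed the threshold, against 0.25% of all genes. At an unadjusted p under 0.05, 1 was higher, which was Mitf, and 1 lower. Each was 3.03%, against 4.37% of all genes in the higher direction and 7.53% in the lower. The lower gene was Atg16, which acts in autophagosome formation, at -2.12 ± 0.47 and -3.36 ± 1.12 (adjusted p = 0.367).

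Dgt2 is a subunit of augmin, the complex that nucleates new microtubules from existing ones. Levels of dgt2 were -0.70, -0.52, -0.83, -1.14 and -2.01 at 7 days, and 0.85, 1.40 and 1.99 (lowest, median and highest) at 45 days. The ages were clearly apart, with a rise of 2.42 (SE 0.31, adjusted p = 0.0159). In the list of cell cycle and mitosis genes, in which dgt2 was the only gene past the threshold, 5 of 18 had an unadjusted p under 0.05 in the higher direction and 0 in the lower, against 4.37% and 7.53% of all genes tested. They included msd5, a further augmin gene, with a change of 1.09 (SE 0.37, adjusted p = 0.306), and dgt1, with 1.02 (SE 0.40, adjusted p = 0.358).

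The muscle LIM protein gene Mlp60A rose by 4.02 (SE 0.56, adjusted p = 0.0159). Its 7-day levels were -2.45, -4.10, -2.52, -5.33 and -3.73, and at 45 days they ran from -0.65 to 1.59 with a median of 0.38, with no overlap. The 2 features used differed in size: one changed by 1.00 and the other, above background on 1 of 5 arrays at 7 days and 6 of 6 at 45 days, by 7.03. Muscle markers leaned the same way. Of 14 on the array 13 were tested, 10 were higher and 3 lower, and their median change was 0.93 above that of all genes. In the higher direction 4 had an unadjusted p under 0.05 (30.8%, against 4.37% of all genes) and in the lower 0. The summed signal of the muscle markers ran from 2.16 to 15.9 at 7 days and from 7.84 to 24.8 at 45 days, so the ranges overlapped. The tropomyosin gene Tm2 was at -2.84 ± 1.06 and -1.01 ± 0.84 (adjusted p = 0.242), the myofilin gene Mf at -1.39 ± 1.19 and 0.22 ± 0.70 (0.302), and the troponin I gene wupA at -0.57 ± 1.41 and 1.24 ± 0.92 (0.325). The 3 that went the other way were fln, with a change of -2.15, Act79B, with -0.33, and Tm1, with -0.21. The part that muscle RNA has in the change of Mlp60A was not tested, and in pooled cells more cells of a type and more RNA per cell cannot be told apart.

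Pabp2, the nuclear poly(A)-binding protein gene whose human counterpart is mutated in oculopharyngeal muscular dystrophy, and MED23, a subunit of the Mediator coactivator of RNA polymerase, showed smaller rises. Pabp2 was at -0.63, -0.13, 0.18, -0.43 and -0.77 in the 7-day pools and between 0.56 and 0.89 in the 45-day pools (median 0.81), a rise of 1.13 (SE 0.19, adjusted p = 0.0464). The 45-day pools were all higher and lay within a narrow range. The call was not firm, since Pabp2 missed the threshold in 10 of the 11 fits that left out 1 array. It also missed it with the slide as a block (limma adjusted p = 0.0725). Of the 3 Pabp2 features used, 2 were higher at 45 days by 1.68 and 1.63 and the third by 0.06. MED23 rose by 1.55 (SE 0.24, adjusted p = 0.0252), from -2.82 ± 0.44 to -1.28 ± 0.29. Its second feature, above background on 2 of 5 arrays at 7 days and 0 of 6 at 45 days and not used, changed by -1.74, and with both features the change of the gene was -0.095.

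Ugt50B3, of the UDP-glycosyltransferase family that conjugates sugars to small molecules, rose by 3.54 (SE 0.49, adjusted p = 0.0159), from -4.38, -3.28, -3.25, -2.86 and -1.39 at 7 days to levels between -0.38 and 1.15 (median 0.54) at 45 days. CG8620 had levels of -0.85, 0.73, -1.62, -0.12 and 0.58 and then of 2.31 to 3.32 (median 2.58), a rise of 2.94 (SE 0.42, adjusted p = 0.0176). Both genes were above background on all 11 arrays, and in both the lowest 45-day pool lay at least 1 unit above the highest 7-day pool.

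The largest rises belonged to genes dim at 7 days. CG31601, CG9641, Su(P), can and CG30203 passed the filter through 45 days only, the age at which they were high, so they had to differ to some degree to be tested. CG31601 was at -8.63, -8.00, -8.90, -9.97 and -6.91 in the 7-day pools, above background on 3 of 5 arrays, and at -2.29 to -0.84 (median -1.92) at 45 days on 6 of 6. It rose by 6.68 (SE 0.50, adjusted p = 0.000366). CG9641 rose by 6.93 (SE 0.93, adjusted p = 0.0159), although 45-day pool 4 stood at -6.07 and the other 45-day pools between -2.02 and 0.33. Its second feature, above background on 2 arrays of each age and not used, changed by -0.84, and with both features the change was 3.04, not past the threshold. In Su(P) the 7-day pools were at -0.41, -9.62, -9.59, -9.32 and -9.77. Hence 7-day pool 1 lay near the 45-day pools (0.91 to 2.47, median 1.17) and the other 4 far below, and the change of 9.24 carried an SE of 1.55 (adjusted p = 0.0448). The remaining 2, can, which encodes a testis-specific TBP-associated factor, and CG30203, rose by 3.86 (SE 0.56) and 3.59 (SE 0.53), each from a signal above background on 1 of 5 arrays at 7 days. With normexp background correction these changes were 1.81 and 1.76 and neither passed the threshold, and those of CG31601, CG9641 and Su(P) were 4.53, 4.74 and 6.92, so the sizes of changes from dim signals depended on the correction.

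The 5 genes that fell included 4 that were at the edge of detection at 45 days. These 4, Ipk1, Grl58a, CG32452 and CG15822, passed the filter through 7 days only. They were high at that age, so they had to differ to some degree to be tested. Ipk1, which encodes an inositol phosphate kinase, was at -4.47, -3.73, -5.37, -5.61 and -3.64 at 7 days and at -10.14, -9.37 and -7.82 (lowest, median and highest) at 45 days. It was above background on 1 of 6 arrays at 45 days, and the change was -4.55 (SE 0.54, adjusted p = 0.0159). Of 3 Ipk1 features on the array, 1 was bright enough to be used. The other 2 changed by -0.97 and -0.36, and with all 3 the change was -1.96, not past the threshold. Grl58a, a gustatory receptor-like gene, changed by -5.43 (SE 0.75) and was above background on 2 of 6 arrays, CG32452 by -5.11 (SE 0.83) on 1 of 6, and CG15822 by -4.69 (SE 0.73) on 1 of 6, with adjusted p-values of 0.0159, 0.04 and 0.0304. With normexp background correction the changes were -2.64 for Ipk1, -2.89 for Grl58a, -2.52 for CG32452 and -2.43 for CG15822, and those of Grl58a and CG15822 no longer passed the threshold. The levels of Grl58a, CG32452 and CG15822 at 7 days were -4.22 ± 1.65, -4.17 ± 0.77 and -4.56 ± 1.31.

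The fifth, ste24a, encodes an endoplasmic reticulum protease that processes prenylated proteins and has close paralogs in the fly genome. It was at -3.45 ± 0.52 at 7 days, with no pool below -4.24, and at -7.36 to -4.59 (median -6.14) at 45 days, without overlap, a fall with a change of -2.60 (SE 0.44, adjusted p = 0.0464). One of its 2 features, above background on every array, changed by -0.82, and the other, above background on 1 of 6 arrays at 45 days, by -4.38. With normexp background correction the gene's change was -1.37, not past the threshold.

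**Figure D2:**
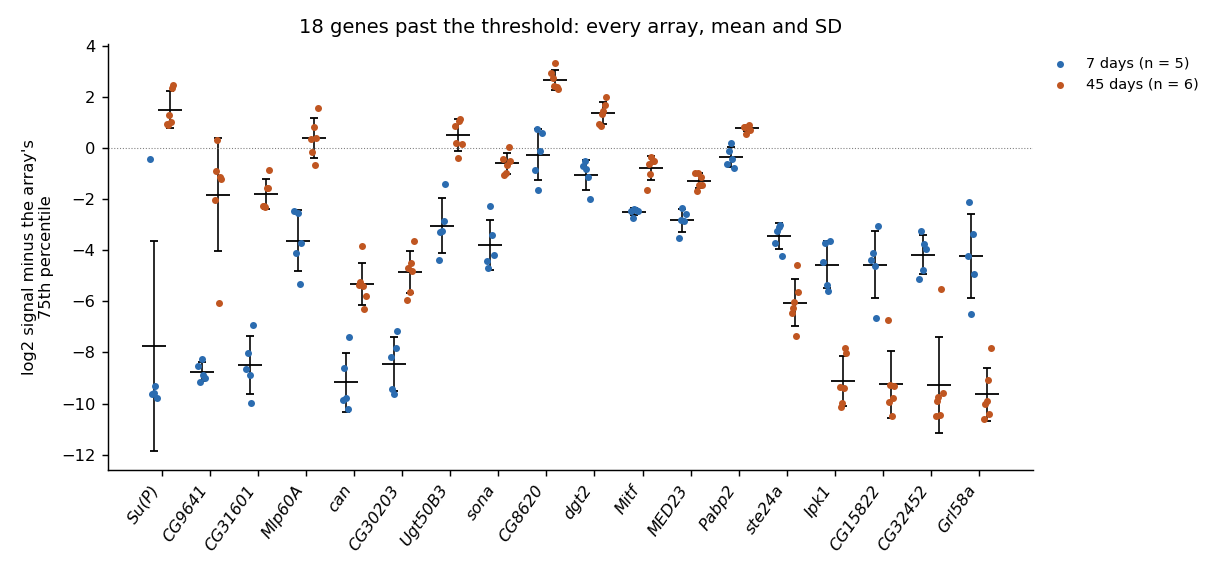
Levels (y axis, log2 signal minus the 75th percentile of the array) of the 18 genes past the threshold other than Mmp1 and dpy, ordered by change, with each of the 5 arrays at 7 days and 6 at 45 days as a point, and the mean and SD as black bars. The ages do not overlap in any of the 18 genes, and Su(P) and CG9641 each have 1 array far from the rest of its age.

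The sizes of the changes were also taken within slide 1 (2 against 3 arrays), within slide 2 (3 against 3) and within the second slide row (5 against 3). Since the ages do not overlap in the 18 genes, their direction within any of these is fixed and only the size can vary. For Mitf the change was 1.52 in slide 1, 1.97 in slide 2 and 1.79 in the second row. For sona these values were 3.73, 2.91 and 2.94, for dgt2 1.65, 3.04 and 2.43, and for Ipk1 -5.72, -3.53 and -4.82. With the slide as a block 15 of the 20 genes stayed past the threshold, among them Mitf, sona, dgt2 and Ipk1. With the slide row as a term 3 genes passed, of which CG31601 and CG9641 were among the 20. Age and row can be separated only through the 3 older arrays in the second row.

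**Figure D3:**
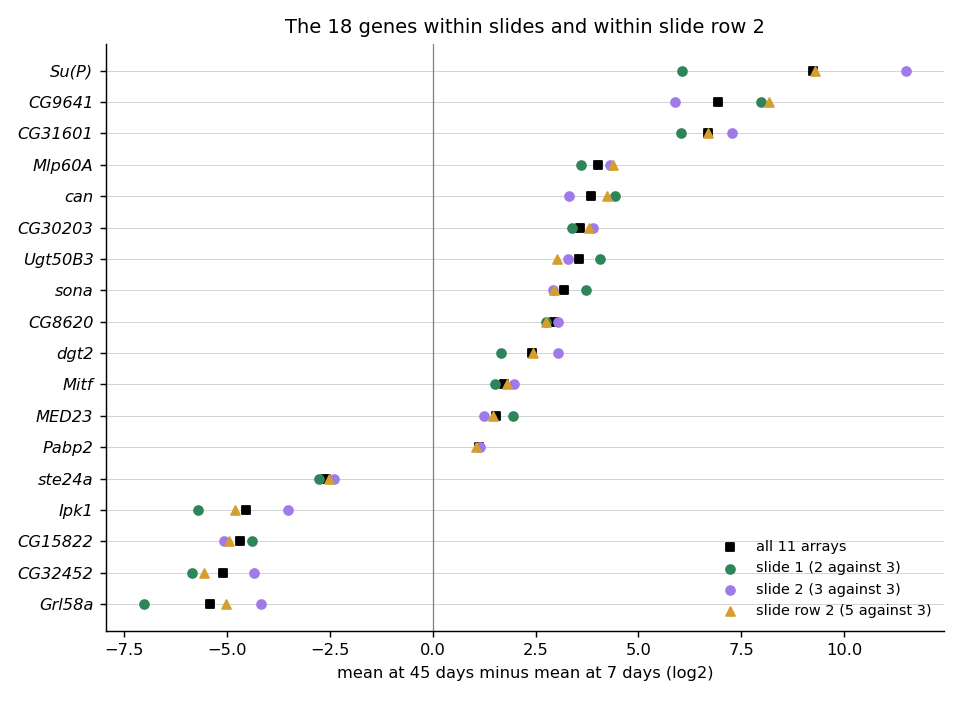
Mean at 45 days minus mean at 7 days (x axis, log2) for the 18 genes, from all 11 arrays (squares), within slide 1 and slide 2 (circles) and within the second slide row (triangles). The side of 0 is fixed for each gene because its ages do not overlap, and the size varies, for example from 1.65 to 3.04 between the slides for dgt2.

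At an adjusted p under 0.1 there were 22 genes higher at 45 days and 12 lower, against 15 and 5 past the threshold. At an unadjusted p under 0.05 there were 349 genes higher (4.37%) and 601 lower (7.53%), whereas with arrays scaled by their median there were 325 higher and 151 lower. The 7 genes lower by more than 2-fold, without overlap and with the lowest p after the 5 above are given with their values. CG31345, with 11 features, was at 1.72, 1.68, 1.65, 1.78 and 1.48 at 7 days and at -0.36, 0.45 and 0.84 (lowest, median and highest) at 45 days, a change of -1.36 (SE 0.24, adjusted p = 0.0501). MFS12, named for the major facilitator superfamily of transporters, had a change of -4.06 (SE 0.70, adjusted p = 0.0501). It passed the filter through 7 days only, the age at which it was high, so it had to differ to some degree. All pools of CG31345 at 45 days lay below the 7-day pools and were spread more widely, with an SD of 0.49 against 0.11.

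The scaffold gene vari, which organizes septate junctions, was at 1.39 ± 0.15 and 0.29 ± 0.41 (adjusted p = 0.0911). CG7430, which encodes the dihydrolipoyl dehydrogenase shared by mitochondrial dehydrogenase complexes, was at 2.63 ± 0.15 and 1.62 ± 0.39 (0.117). Hus1-like, of the checkpoint clamp that senses DNA damage, was at -2.43 ± 0.41 and -7.67 ± 2.69 (0.135) and above background on 3 of 6 arrays at 45 days. BobA, a Bearded-family gene with near-identical neighboring copies whose signals cannot be separated with certainty, was at -4.24 ± 0.51 and -5.50 ± 0.24 (0.0838). CG43341 was not well above background on any array at 45 days, so only a bound under the main processing is given, 2.55-fold lower than at 7 days. At 7 days it was at -6.69 ± 1.27 (0.0674). The bound sets the mean at 7 days against the higher of the gene's own signal and the lowest signal well above background on each 45-day array. It leaves out the error of the 7-day mean. With normexp background correction the change of CG43341 was -1.05 (log2), smaller than the bound. Of its 2 features 1 was used. Like MFS12, Hus1-like and CG43341 passed the filter through 7 days only.

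Mitochondrial energy genes leaned lower at 45 days. The citric acid cycle, which oxidizes acetyl groups in the mitochondrial matrix, had 18 genes tested, of which 0 passed the threshold, 11 had an unadjusted p under 0.05 in the lower direction (61.1%, against 7.53% of all genes) and 0 in the higher. Their median change was -0.50, which is 0.38 below the median of all genes, and this distance stayed between 0.31 and 0.43 below under the other scalings and background correction, with the brightest feature, the slide block, the row term, the second row alone or the strict filter, and without 45-day pool 4. The same direction held for 16 of the 18.

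The gene of the isocitrate dehydrogenase subunit Idh3g was at 2.81, 2.77, 2.67, 2.73 and 2.34 at 7 days and at 1.39, 1.95 and 2.12 (lowest, median and highest) at 45 days. The mitochondrial aconitase gene mAcon1 was at 3.31, 2.92, 3.24, 3.15 and 3.20, and then at 2.12, 2.57 and 2.66. In both genes every 45-day pool lay below every 7-day pool, with changes of -0.78 (SE 0.18, adjusted p = 0.139) and -0.67 (SE 0.15, adjusted p = 0.143), so neither passed the threshold. ScsbetaA, a succinyl-CoA ligase subunit gene, had a change of -1.66 (SE 0.46, adjusted p = 0.216) with overlapping ages, and of -0.55 by its brightest feature alone.

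Respiratory chain and ATP synthase genes, which build the electron transport complexes, gave a narrower shift. Of 62 tested, 59 were lower at 45 days and 3 higher, against 4863 lower and 3122 higher of all genes. In the lower direction 12 had an unadjusted p under 0.05 (19.4%, against 7.53% of all genes) and in the higher 0, and 0 passed the threshold. Their median change lay 0.17 below that of all genes (0.12 to 0.22 below over the same settings). The count of lower genes turns with the scaling, since with arrays scaled by their median the median change of this list was 0.06. The ATP synthase subunit gene ATPsyngamma was at 2.44 ± 0.19 and 1.83 ± 0.17, without overlap (adjusted p = 0.176), and ATPsyndelta at 3.84 ± 0.13 and 3.33 ± 0.18, also without overlap (0.241). ND-B8, a complex I subunit gene, was at -3.06, -2.87, -2.58, -6.71 and -2.50 at 7 days and was above background on 2 of 6 arrays at 45 days (0.229). It passed the filter through 7 days only.

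Of 65 mitochondrial ribosomal protein genes, 4 had an unadjusted p under 0.05 in the lower direction and 0 in the higher. The share of 6.15% lower was below the 7.53% of all genes. The lowest p belonged to mRpL43, at 1.44 ± 0.27 and 0.87 ± 0.28 (adjusted p = 0.302). Of 13 glycolysis genes 4 were lower (30.8%) and 1 higher (7.69%, against 4.37% of all genes) at that level. Their median lay 0.18 below that of all genes. Gapdh1 was at 3.24 ± 0.22 and 2.70 ± 0.21 (0.27), and Pgk at 3.49 ± 0.23 and 2.94 ± 0.25 (0.287). The exception was Ldh, lactate dehydrogenase, which converts pyruvate to lactate. It was at -8.57, -2.63, -4.98, -6.27 and -1.44 at 7 days and at -1.34, -0.52 and 0.57 (lowest, median and highest) at 45 days, a difference of 4.30 (limma adjusted p = 0.176) without overlap. The 7-day pools were widely scattered, and the pool at -8.57 was the only 1 of 5 not above background. Ldh thus passed the filter through 45 days only.

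Among sodium-potassium pump and vacuolar ATPase genes, 8 of 22 had an unadjusted p under 0.05 in the lower direction (36.4%, against 7.53% of all genes). In the higher direction 0 did, and the median of the list lay 0.23 below that of all genes (0.17 to 0.30 below). Atpalpha, the catalytic subunit of the sodium-potassium pump that restores the membrane potential after firing, was at 2.28, 2.65, 1.90, 2.45 and 2.10 at 7 days and at 0.45, 1.20 and 2.07 (lowest, median and highest) at 45 days. Only the highest 45-day pool reached the range of the 7-day pools, and the change was -1.11 (SE 0.29, adjusted p = 0.176). With the brightest of its 7 features alone the change was -0.23. The pump's beta subunit gene nrv3 was at 4.15 ± 0.15 and 3.74 ± 0.12 without overlap (0.306), and the proton pump gene Vha26 at -0.19 ± 0.41 and -0.92 ± 0.43 (0.322).

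Synaptic and excitability genes, a main content of this array, held 0 genes past the threshold. Of 43 synaptic vesicle and active zone genes, 4 had an unadjusted p under 0.05 in the lower direction and 0 in the higher. The share of 9.3% lower was near the 7.53% of all genes. In the lower direction 6 did not overlap (against 1.42% of all genes tested), and the median lay 0.13 below that of all genes (0.07 to 0.19 below). Amph, of the amphiphysin family of membrane-curving proteins, was at 1.04 ± 0.28 and 0.05 ± 0.49 (adjusted p = 0.181). Csp, a synaptic vesicle co-chaperone, was at 2.42, 2.40, 2.28, 2.27 and 2.03 at 7 days and at 1.18, 1.65 and 1.93 (lowest, median and highest) at 45 days (0.203). The SNARE gene Snap25 was at 4.52 ± 0.18 and 4.03 ± 0.13 (0.251). In all 3 the 45-day pools lay below the 7-day pools.

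Of 40 voltage-gated and leak channel genes, 7 had an unadjusted p under 0.05 in the lower direction (17.5%, against 7.53% of all genes) and 0 in the higher. Teh4, a sodium channel accessory subunit gene, was at -1.51 ± 0.37 and -3.15 ± 1.05 (adjusted p = 0.226), the leak potassium channel gene Task7 at -0.51 ± 0.30 and -1.70 ± 0.85 (0.281), and sei, the ERG-type potassium channel gene, had a change of -1.01 (0.306). All 3 overlapped between the ages and were more spread at 45 days, and with the brightest feature alone the changes of Teh4 and Task7 were -0.50 and -0.23. The median of this list lay 0.24 below that of all genes, but with the brightest feature of each gene only 0.00 below.

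Of 43 neurotransmitter receptor genes, 5 were lower at that level (11.6%, against 7.53% of all genes) and 1 higher (2.33%, against 4.37%). The nicotinic acetylcholine receptor subunit gene nAChRbeta1, read by 25 features, was at 2.76, 3.07, 2.50, 2.89 and 2.96 at 7 days and at 2.21, 2.29 and 2.43 (lowest, median and highest) at 45 days. The ages did not overlap, and the change was -0.53 (SE 0.15, adjusted p = 0.216). A second subunit gene, nAChRbeta2, was at -0.61 ± 0.46 and -2.07 ± 0.85 (0.222).

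Calcium sensors and signaling genes had a median close to that of all genes, 0.01 above it. Of 31 tested, 6 had an unadjusted p under 0.05 in the lower direction (19.4%, against 7.53% of all genes) and 0 in the higher. The sarcoplasmic calcium-binding protein gene Scp2 was at 3.52, 3.72, 3.38, 3.60 and 3.17 at 7 days and at 2.39, 2.79 and 3.10 (lowest, median and highest) at 45 days, without overlap, with a change of -0.73 (SE 0.19, adjusted p = 0.176). PMCA, the calcium pump of the plasma membrane, was at 0.23 ± 0.16 and -0.31 ± 0.17 without overlap (0.226). Cbp53E, a calbindin-type buffer gene, was at 2.24 ± 0.26 and 1.78 ± 0.14 (0.322). Of 51 neuropeptide and receptor genes, 7 were lower (13.7%, against 7.53% of all genes) and 2 higher (3.92%, against 4.37%). The lowest p was that of the neuropeptide-like precursor gene Nplp3, whose levels at 7 days ran from -1.92 to 3.25 and at 45 days from -8.75 to -1.41 (0.176).

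Glial markers moved in the same direction as these lists. Of 8 tested, 3 had an unadjusted p under 0.05 in the lower direction (37.5%, against 7.53% of all genes) and 1 in the higher (12.5%, against 4.37%). The summed signal of the 8 was 22.5 to 39.3 at 7 days and 14.2 to 27.1 at 45 days. The glutamate transporter gene Eaat1 was at 1.39 ± 0.66 and -0.37 ± 0.91 (adjusted p = 0.188), alrm had an adjusted p of 0.279, and moody, of the blood-brain barrier, was at -2.50 ± 1.02 and -0.92 ± 0.92 (0.308). The part of glial RNA in the lower levels of the lists above was not tested. VGAT, the vesicular GABA transporter gene, had a change of -0.64 (0.333).

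**Figure D4:**
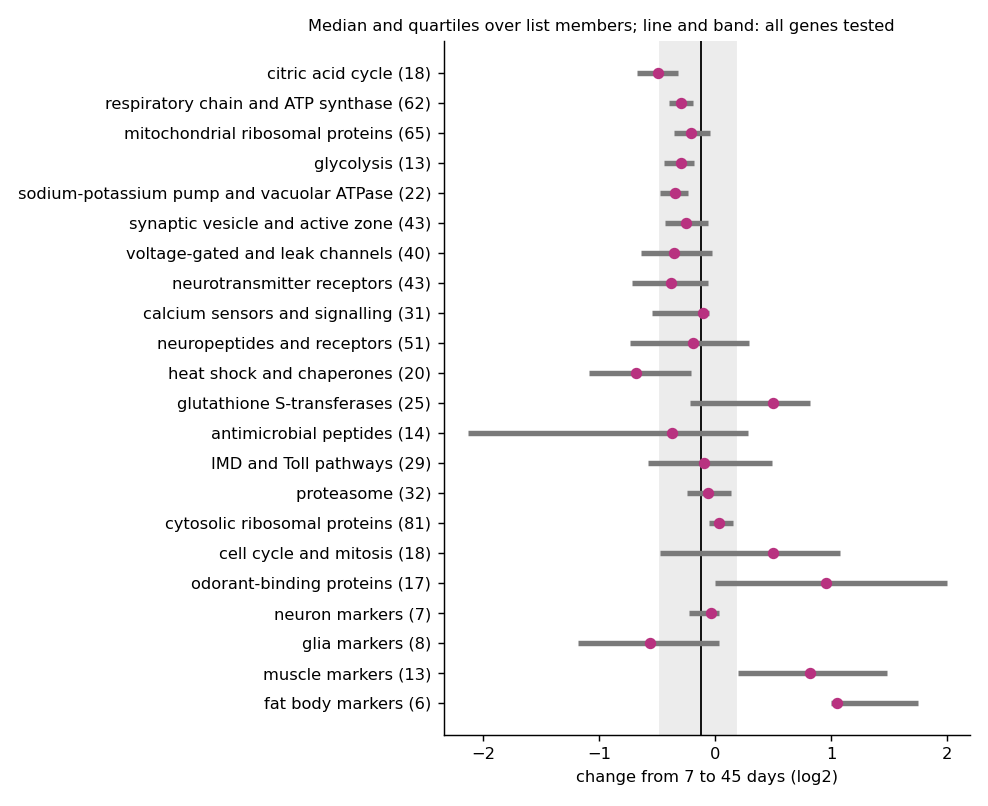
Median (points) and quartiles (bars) of the change from 7 to 45 days (x axis, log2) over the tested members of 22 gene lists, with the number tested in parentheses, against the median (line) and quartiles (band) of all 7985 genes. Citric acid cycle and heat shock genes lie to the left of the line at -0.50 and -0.68, and odorant-binding proteins, muscle markers and fat body markers to the right at 0.96, 0.82 and 1.05.

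Among neuronal activity genes, Arc1 and Arc2 were higher without overlap but did not pass the threshold. Arc1, an activity-regulated gene whose protein forms virus-like capsids that carry RNA between cells at the neuromuscular junction, was at 2.02, 2.13, 2.38, 1.67 and 2.83 at 7 days and at 3.15, 4.02 and 4.36 (lowest, median and highest) at 45 days. Its neighboring paralog Arc2 was at -2.10, -0.82, -0.80, -1.42 and -3.19 and then at -0.50, 0.55 and 0.95. In both genes every 45-day pool lay above every 7-day pool. The differences were 1.68 (SE 0.30, adjusted p = 0.0544) and 2.11 (SE 0.45, adjusted p = 0.13), and Arc1 passed the threshold in the deposited log2 table and with quantile normalization, among other settings, but not with the slide as a block.

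Jra, the fly Jun protein gene, was at -1.52, -1.86, -2.78, -1.26 and -2.36 at 7 days and at -5.24, -4.22 and -2.49 (lowest, median and highest) at 45 days, a difference of -2.15 (SE 0.45, adjusted p = 0.128). One 45-day pool reached the 7-day range, and with the brighter of its 2 features alone the change was -0.13. Of 12 activity-regulated genes, 3 were higher (25.0%, against 4.37% of all genes) and 1 lower (8.33%, against 7.53%) at an unadjusted p under 0.05. The median lay 0.07 above that of all genes.

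In BMP signaling, the pathway by which muscle informs the motor neuron of synaptic size, the ligand gene gbb was at -3.20, -4.04, -3.15, -3.75 and -3.50 at 7 days and at -2.63, -2.24 and -1.47 (lowest, median and highest) at 45 days. The 45-day pools were all higher, by 1.36 on average (SE 0.25, adjusted p = 0.07). Its type I receptor gene tkv, which passed the filter through 7 days only, was at -3.39 ± 0.39 and -6.08 ± 2.11, with overlap and a much wider spread at 45 days (0.298). These were the 2 of 24 genes of the list with an unadjusted p under 0.05, 1 in each direction. In each direction this was 4.17%, against 4.37% of all genes in the higher and 7.53% in the lower.

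**Figure D5:**
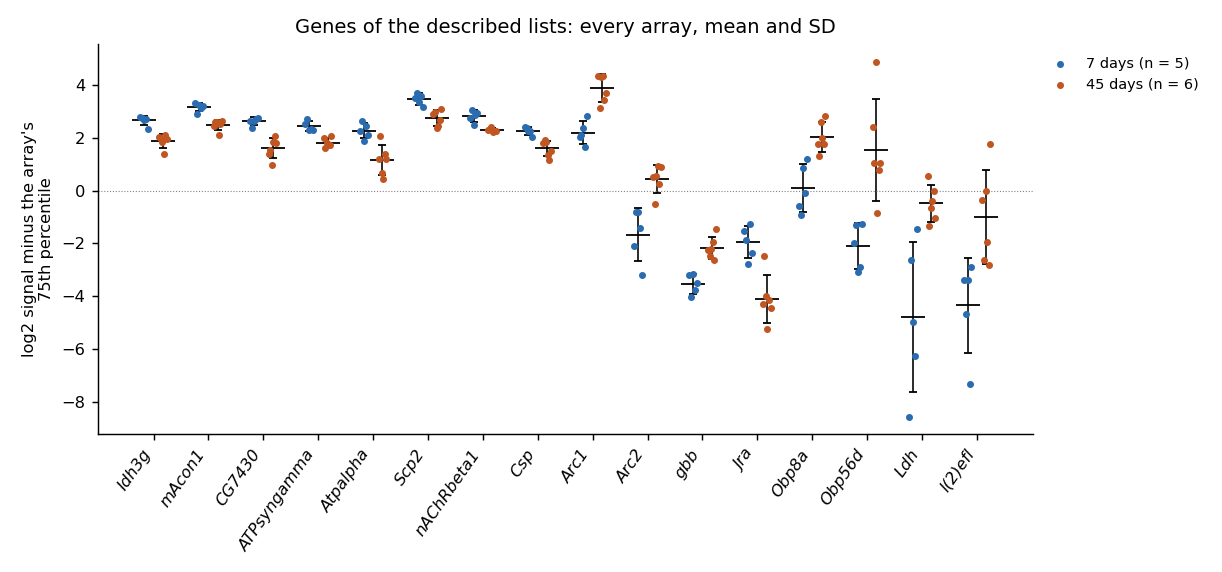
Levels (y axis, log2 signal minus the 75th percentile of the array) of 16 genes of the described lists, with each of the 5 arrays at 7 days and 6 at 45 days as a point, and the mean and SD as black bars. The 8 mitochondrial, pump, calcium and synaptic genes on the left have lower means at 45 days, by 0.53 (nAChRbeta1) to 1.11 (Atpalpha), and Arc1, Arc2, gbb, Obp8a, Obp56d, Ldh and l(2)efl lie higher without overlap.

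Heat shock and chaperone genes leaned lower relative to all genes. Of 20 tested, 16 were lower at 45 days (4863 of 7985 over all genes) and 0 passed the threshold. At an unadjusted p under 0.05, 5 were lower (25.0%, against 7.53% of all genes) and 1 higher (5.0%, against 4.37%). The median lay 0.56 below that of all genes (0.44 to 0.84 below). The small heat shock gene Hsp67Ba was at 1.72, 2.06, 1.67, 1.41 and 1.51 at 7 days and at 0.56, 0.72 and 1.28 (lowest, median and highest) at 45 days, without overlap (change -0.83, SE 0.20, adjusted p = 0.157). The mitochondrial chaperonin gene Hsp60A was at -0.74 ± 0.66 and -1.95 ± 0.62 (0.269), with a change of -0.35 by its brightest feature alone. In contrast, l(2)efl, a small heat shock gene of the alpha-crystallin family, was at -3.39, -4.68, -3.40, -7.34 and -2.91 and then at -2.83, -1.15 and 1.76, without overlap (difference 3.34, SE 1.00, adjusted p = 0.251). Hsp70 genes in this list are near-identical copies and were not read singly.

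Detoxification genes were mixed. Of 25 glutathione S-transferase genes, 4 were higher and 3 lower at an unadjusted p under 0.05, with a median 0.62 above that of all genes (0.43 to 0.62 above). GstD8 was at -6.35 ± 1.26 and -3.57 ± 1.03 (adjusted p = 0.142), GstE13 at 2.33 ± 0.30 and 1.72 ± 0.30 (0.302) and GstE11 at -0.81 ± 0.42 and -0.06 ± 0.45 (0.322), all with overlap. GstD8 passed the filter through 45 days only, so it had to differ to some degree. SelR, which repairs oxidized methionine, was at 3.27 ± 0.17 and 2.71 ± 0.20 without overlap (0.226). It was the only 1 of 20 antioxidant genes with an unadjusted p under 0.05 (5.0%, against 7.53% of all genes in the lower direction). The metal-binding metallothionein gene MtnA was at 0.72 ± 1.30 and 2.64 ± 0.60 (0.229), and the copper importer gene Ctr1A at 1.36 ± 0.40 and 0.64 ± 0.42 (0.322).

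Immune genes were split almost evenly between higher and lower means. Of 14 antimicrobial peptide genes tested, 7 were higher and 7 lower in the older pools, against 3122 and 4863 of all genes. At an unadjusted p under 0.05, 2 were lower (14.3%, against 7.53% of all genes) and 0 higher. DptA, which encodes a diptericin, was at -2.10, 0.90, -0.85, -2.90 and -2.91 at 7 days and at -10.16, -6.69 and -0.65 (lowest, median and highest) at 45 days, above background on 3 of 6 arrays (adjusted p = 0.394), and the drosomycin-like gene Drsl2 was at -6.12 ± 1.25 and -7.24 ± 0.33 (0.409). The exact permutation p was 0.082 for DptA, which passed the filter through 7 days only, and 0.065 for Drsl2. Of 29 IMD and Toll pathway genes, 14 were higher and 15 lower. Among them 1 had an unadjusted p under 0.05, in the lower direction (3.45%, against 7.53% of all genes).

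Odorant-binding proteins, secreted carriers of small hydrophobic molecules, leaned higher. Of 47 such genes on the array 17 were tested, 6 had an unadjusted p under 0.05 in the higher direction and 0 in the lower (35.3% against 4.37% of all genes), 0 passed the threshold, and the median lay 1.07 above that of all genes (0.83 to 1.13 above). Obp8a was at -0.58, -0.91, 0.88, -0.09 and 1.20 at 7 days and at 1.30, 1.88 and 2.82 (lowest, median and highest) at 45 days, without overlap (difference 1.94, SE 0.43, adjusted p = 0.139). Obp56d was at -1.98, -1.29, -3.10, -2.91 and -1.26, and then at -0.86, 1.06 and 4.89, also without overlap (difference 3.66, SE 0.87, adjusted p = 0.157). Obp56a was at -2.14 ± 0.78 and -0.01 ± 1.33 (0.246).

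Fat body markers moved in the same direction. Of 11 on the array 6 were tested, and all 6 had the higher mean in the older pools, 2 at an unadjusted p under 0.05 (33.3%, against 4.37% of all genes). The summed signal of the 6 was 3.76 to 22.1 at 7 days and 12.0 to 36.0 at 45 days. The lipoprotein gene apolpp was at 1.07 ± 0.92 and 2.05 ± 0.49 (adjusted p = 0.387) and the yolk protein gene Yp2 at 0.13 ± 1.00 and 1.17 ± 0.58 (0.407). The part of fat body RNA in the higher odorant-binding protein levels was not tested.

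Of 19 cuticular protein genes 2 were higher and 3 lower at an unadjusted p under 0.05. These were 10.5% and 15.8%, against 4.37% and 7.53% of all genes. Cpr66D was at -5.88, -6.94, -9.63, -9.97 and -4.50 at 7 days, above background on 3 of 5 arrays, and at -3.59 to -2.06 at 45 days (difference 4.29, SE 0.92, adjusted p = 0.135). It passed the filter through 45 days only. In the list of other extracellular matrix and protease genes 3 of 42 were higher (7.14%) and 1 lower (2.38%) at that level. In this list 0 passed the threshold. The integrin beta subunit gene mys was at 1.41 ± 0.10 and 1.84 ± 0.21 without overlap (0.317).

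Small RNA and splicing factors gave values in both directions. AGO3, an Argonaute of the piRNA pathway that silences transposons, was at -8.72, -4.34, -6.26, -4.31 and -6.20 at 7 days and at -4.31, -1.81 and -0.14 (lowest, median and highest) at 45 days, the extremes of the ages meeting (difference 4.00, SE 0.88, adjusted p = 0.139). It passed the filter through 45 days only, so it had to differ to some degree. Of its 4 features 2 were used, and with all 4 the change was 2.15. The Tudor-domain gene tej of the same pathway was at -4.37 ± 1.57 and -8.53 ± 2.23, above background on 2 of 6 arrays at 45 days (0.188). It passed the filter through 7 days only. Dcr-2, the Dicer of the siRNA pathway, was at -0.67 ± 0.44 and -1.84 ± 0.60 without overlap (0.209). Over the 15 genes of this list 2 were higher and 2 lower at an unadjusted p under 0.05. Each was 13.3%, against 4.37% of all genes in the higher direction and 7.53% in the lower. Lsm10, which belongs to the U7 particle that processes histone RNA, was at -0.34 ± 0.36 and 0.97 ± 0.69 without overlap (0.176). It was the only 1 of 15 Sm and LSm genes with an unadjusted p under 0.05 (6.67%, against 4.37%).

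Of 41 axonal transport and cytoskeleton genes 3 were higher and 3 lower at an unadjusted p under 0.05. Each was 7.32%, against 4.37% of all genes in the higher direction and 7.53% in the lower. The kinesin gene Klp98A was at -0.05 ± 0.67 and 0.96 ± 0.46 (adjusted p = 0.298) and alphaTub84D, an alpha-tubulin gene with close paralogs, at 1.16 ± 0.31 and 0.22 ± 0.74 (0.341). Among 33 motor neuron and Hox transcription factor genes 4 were higher at that level (12.1%, against 4.37% of all genes) and 0 lower. The Hox gene Scr was at -9.54 ± 1.28, above background on 1 of 5 arrays, and -7.19 ± 0.80 (0.176), and exex, the fly Hb9 gene that specifies motor neurons, at -2.18 ± 0.65 and -0.69 ± 1.05 (0.306). Scr passed the filter through 45 days only. Of 15 clock genes 2 were higher at that level (13.3%, against 4.37% of all genes). They were vri, at -4.11 ± 1.97 and -1.60 ± 1.17 (0.315), and tim, at -2.06 ± 0.44 and -1.39 ± 0.42 (0.362). In slide 2 alone these differences were 0.95 and 0.26.

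A pair of large housekeeping groups held no gene with an unadjusted p under 0.05. Of 81 cytosolic ribosomal protein genes 0 reached that level in either direction, and their median lay 0.15 above that of all genes. Of 32 proteasome genes 0 did so, with a median 0.05 above that of all genes. Neither statement excludes small changes. In simulated arrays with the measured spread, 11.5% of 200 genes given a log2 change of 1 passed the threshold for single genes. Of those given a change of 2, 69.5% did. That threshold is stricter than the unadjusted p counted for these groups, and a log2 change of 1 lies at its fold limit. The shares therefore do not give the sensitivity of these counts, which was not tested.

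Most genes had a larger SD among the 45-day arrays. The SD over arrays had a median of 0.46 at 7 days and 0.61 at 45 days over the 7985 genes, and 67.3% of genes had the larger SD at 45 days. Over the 6239 genes measured at both ages these values were 0.40, 0.51 and 63.8%. Without 45-day pool 4, the array with the fewest spots above background, the median at 45 days was 0.52 and the share was 58.2%, and with the second slide row alone the share was 54.5%. The 45-day arrays lay in both slide rows and the 7-day arrays in the second row only, so row differences enter only the 45-day SD. Neither the part of the row nor the difference in spread between the ages was tested.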

How the data were processed

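RNA from pools of sorted motor neurons was doubly amplified, labeled with Cy3 and hybridized by the authors. Scanner files as the authors deposited them hold a processed intensity for every spot, corrected for background by Agilent Feature Extraction 11.5.1.1 and not scaled between arrays, and name the genome build dm3. A deposited table of log2 values, scaled by the authors to the 75th percentile, served as an alternative. Each intensity was turned into log2, the array's own 75th percentile was subtracted, and control spots and outlier spots left out. Of 45366 features, 35004 were named, mainly by RefSeq accession, and 10362 were not used. A feature was kept when well above background on all arrays of at least 1 age. Features of a gene were averaged. The custom features have no sequence here, so copies of one sequence count as separate features.

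The 5 arrays at 7 days and 6 at 45 days were compared with limma 3.58.1 (lmFit and eBayes, R 4.3.3), with Benjamini-Hochberg adjustment over 7985 genes. Single genes were also compared by two-sided exact permutation (scipy 1.17.1). Arrays carry no read depth, and their number limits the precision. The test was run on simulated arrays with 200 changed genes.

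Named genes are those past the threshold, lower genes without overlap up to 12, and the genes of lowest p in each list described. The genes, lists and rules were chosen with earlier results of these data known. Lists are described by counts and medians, without a test. The normexp alternative used median spot and background intensities, because the files hold no mean signal. Alternatives also covered the filter, scaling, feature summary, slide, slide row, array weights, the methods' t-test and each array left out.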

Additional observations from a re-analysis of the deposited data

Results flagged for a closer look

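In each named gene the array farthest from the others of its age was compared with Dixon's 95% critical value. Of 190 groups tested 15 passed it, against about 9.5 expected by chance at 1 in 20. In 45-day pool 4, CG9641 stood at -6.07 against -2.02 to 0.33 in the other pools, Idh3g at 1.39 against 1.85 to 2.12 and mAcon1 at 2.12 against 2.46 to 2.66. This pool also had the fewest spots above background.

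At 7 days, Su(P) stood at -0.41 in pool 1 against -9.77 to -9.32, Mitf at -2.73 in pool 2 against -2.47 to -2.39, and Lsm10 at -0.98 in pool 2 against -0.32 to -0.11. Pool 3 was high for CG43341, at -4.50 against -7.53 to -6.70, and for Scr, at -7.26 against -10.32 to -9.93. Pool 4 was low for ND-B8, at -6.71 against -3.06 to -2.50, and for Snap25, at 4.22 against 4.56 to 4.67. Pool 5 gave 2.34 for Idh3g against 2.67 to 2.81, -2.72 for tkv against -3.66 to -3.43, and -1.54 for GstE11 against -0.74 to -0.51.

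At 45 days, CG32452 stood at -5.53 in pool 5 against -10.47 to -9.57, and CG15822 at -6.74 in pool 1 against -10.47 to -9.26; these were the only pools of that age in which the genes were above background.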

How the results depend on the processing

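The count of 20 genes past the threshold was 0 with all features and no filter on dim ones (12975 genes, 10 at an adjusted p under 0.1 and 1257 at an unadjusted p under 0.05), 8 with features above background on all 11 arrays, 7 and 5 within slide 1 and slide 2, 3 with the slide row as a term, and 34 at an adjusted p under 0.1 without a minimum fold. Leaving out 1 array gave 7 to 27 genes, with 777 to 958 at an unadjusted p under 0.05. The second slide row alone gave 19 genes, 3 higher and 16 lower, of which 7 were among the 20. The 950 genes at an unadjusted p under 0.05 were 476 with arrays scaled by their median (68.3% higher against 36.7%), and 633 and 575 within slide 1 and slide 2.

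MED23 changed direction without the filter (-0.095), where its dim feature entered; the other 19 genes past the threshold kept theirs, which the lack of overlap fixes in settings that only leave arrays out. Over the 95 named genes, 233 of 2829 gene and setting pairs lost the threshold and 43 gained it.

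The share of genes with the larger SD at 45 days, 67.3%, was 66.2% without the filter, 63.8% with the strict filter, 64.0% with the brightest feature, 90.5% with median scaling, 68.3% and 60.1% within slide 1 and slide 2, 54.5% within the second slide row and 58.2% to 71.7% with 1 array left out. The cause of these differences was not tested.

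The labels do not say whether pool numbers pair the samples. Deviations of same-numbered pools correlated at -0.09 to 0.10, and 2 of 5 pools correlated best with their own number, which does not settle how the pools were collected. With the replicate block 6 genes passed, 3 of them among the 20.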
